A study of Homo sapiens with 5 samples.

Results

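Nuclear receptors are transcription factors that, in most cases, are switched by small lipophilic ligands such as steroid and thyroid hormones, retinoids, vitamin D, fatty acids and oxysterols. This family was followed across 5 arrays of C4-2B cells given 2 dietary agents, and 46 of its genes were listed by family membership. The list does not take in every receptor of the family, and it was drawn up with earlier results of these data known. Of these, 39 had at least 1 probe set that maps to them alone, with 127 such probe sets in all, out of 19775 genes on the same basis. NR1D1, NR1H2, NR1H4, NR1I2, HNF4A, NR2F2 and NR0B1 had none and were not analysed here, and the 3 probe sets of NR1D1 are shared with THRA.

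C4-2B is a bone-metastatic prostate cancer line derived from LNCaP, and all of the cells were grown in RPMI medium with fetal bovine serum. The control received 0.1% DMSO, the vehicle, and no source used here gives its time in culture. BR-DIM, called B-DIM in the labels, is a formulated 3,3′-diindolylmethane, the dimer that forms from indole-3-carbinol of cruciferous vegetables, and was given at 25 µM for 6 h or 48 h. Isoflavone is a soy mixture rich in genistein and was given at 25 µM, counted as genistein, for 6 h or 72 h. Each of the 5 conditions was measured on 1 array, so no value has a replicate error, no p-value is given, and every ratio describes these arrays and not the conditions in general.

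A nuclear receptor consists of a zinc finger DNA-binding domain joined to a ligand-binding domain that recruits coactivators or corepressors. The steroid receptors wait in chaperone complexes and bind DNA as homodimers, whereas the thyroid hormone, retinoic acid, vitamin D, PPAR and LXR receptors pair with an RXR on direct repeats of the half-site AGGTCA. The orphan members have no settled ligand, and the NR4A members are immediate-early genes whose RNA is induced by many stimuli. In prostate epithelium, steroid receptors, retinoid receptors and the vitamin D receptor are known regulators of growth and differentiation, genistein is a ligand of the estrogen receptors, and diindolylmethane is a ligand of the aryl hydrocarbon receptor, which is not a nuclear receptor of this family.

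The promoters of 3 receptors described below are shown because their sequence carries elements that nuclear receptors or stimulus-induced factors can bind, and because their signals differed by about 2-fold or more from the control on some array. RefSeq windows from 250 bases before to 50 bases after each annotated start (GRCh38.p14) were given for 41 of the 46 genes, 96 windows in all, and the 250 bases before the start are printed here, all on the + strand. Capitals mark, in order, a direct repeat of 2 half-sites with 5 bases between them (RARB, chr3:25428013-25428262), the cAMP response element TGACGTCA (NR2E1, chr6:108165772-108166021), the NR4A monomer site AAAGGTCA, which lies on the reverse strand and so reads TGACCTTT (NR2E1, second start, chr6:108167773-108168022), and 1 half-site AGGTCA (NR1H3, chr11:47248050-47248299).
RARB: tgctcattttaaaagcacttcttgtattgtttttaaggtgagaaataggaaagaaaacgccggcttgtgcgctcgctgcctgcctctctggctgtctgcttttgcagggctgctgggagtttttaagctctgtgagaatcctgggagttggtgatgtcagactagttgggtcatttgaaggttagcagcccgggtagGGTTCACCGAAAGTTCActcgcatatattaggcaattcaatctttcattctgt
NR2E1, first start: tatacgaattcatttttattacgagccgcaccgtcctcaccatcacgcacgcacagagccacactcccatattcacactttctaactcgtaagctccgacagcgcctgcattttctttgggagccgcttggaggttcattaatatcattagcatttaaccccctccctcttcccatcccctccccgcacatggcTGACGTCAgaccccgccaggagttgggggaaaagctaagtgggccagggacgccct
NR2E1, second start: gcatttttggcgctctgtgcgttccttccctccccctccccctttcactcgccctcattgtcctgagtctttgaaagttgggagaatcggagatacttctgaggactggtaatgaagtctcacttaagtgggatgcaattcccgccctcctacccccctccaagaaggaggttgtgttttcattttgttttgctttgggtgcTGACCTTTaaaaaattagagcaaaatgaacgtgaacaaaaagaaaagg
NR1H3: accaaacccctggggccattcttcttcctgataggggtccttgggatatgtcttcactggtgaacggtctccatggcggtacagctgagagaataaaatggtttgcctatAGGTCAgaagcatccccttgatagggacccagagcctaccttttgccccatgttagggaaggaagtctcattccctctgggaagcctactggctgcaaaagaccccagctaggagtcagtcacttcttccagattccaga

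A direct repeat with 5 bases between half-sites, where a half-site was AGGTCA, or AGTTCA in a common variant, or else GGTTCA as in RARB, or finally GGGTCA, was found on either strand in 0.0883% of all 35116 promoter windows and in 1 window of the receptors (1.04%), that of RARB, where it starts at position -53 from the start. Repeats of the same half-sites spaced by 1, 2, 3 or 4 bases were in none of the 96 receptor windows and in 0.0399% to 0.131% of all windows. The single half-site AGGTCA was in 16.7% of the receptor windows and 13.8% of all windows. The site AAAGGTCA, which contains that half-site, was in 4.17% and 1.22%, in windows of ESR2, ESRRG, NR2E1 and PPARG. The element TGACGTCA was in 2.08% and 1.85%, in windows of NR2E1 and NR6A1. GCGTG, the core to which the aryl hydrocarbon receptor binds, was in 38.5% and 36.5%, and the E-box CACGTG, bound by the clock factors, was in 9.38% and 7.26%. These are matches of letters in short windows, not measured binding sites.

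A signal here is a linear intensity of 1 probe set, and signals of different probe sets are not comparable with each other, so each gene is compared only with itself across arrays. Values of a receptor are those of its brightest probe set, by mean signal, unless another probe set is named. The floor was 97.1, which was the median signal over the arrays together, and lower signals were raised to it before ratios were taken, which makes such a ratio a bound. A gene was measured in a comparison where at least 1 of its 2 signals lay above the floor, and a ratio of 2-fold (a log2 ratio of 1) was counted as a change. The 5 arrays had been scaled to nearly equal trimmed means of 498.1 to 498.4, and on each of them 48.4% to 52.6% of probe sets exceeded the floor. The 8 prostate luminal markers summed to 12788 for the control, 12094 for BR-DIM 6 h and 11413 for isoflavone 72 h, with all 8 above the floor. They summed to only 2468 after 48 h of BR-DIM and 1955 after 6 h of isoflavone, with 4 and 5 above it, and KLK2, TMPRSS2 and FOLH1 under it on both. The 4 epithelial markers likewise summed to 5645 to 10117 on the first 3 arrays and to 470.4 and 401.5 on the last 2, with EHF and GRHL2 under the floor on both. A sum can hide opposite changes. On isoflavone 72 h, 2 luminal markers were past 2-fold lower than control, KLK3 (5096 to 1545, or -1.72) and KLK2 (706.7 to 124, or -2.51). STEAP2 was past 2-fold higher there (2505 to 5316, or 1.09). Fibroblast and osteoblast markers summed to 558.6 to 1591 and macrophage and osteoclast markers to 174.1 to 341.1 over the 5 arrays, and LUM, PDGFRB, CD14 and PTPRC were under the floor on all of them. COL1A1 (413.5 to 972) and CTSK (101 to 137.6) were above it on all 5, and COL3A1 on all but isoflavone 72 h. The arrays labelled BR-DIM 48 h and isoflavone 6 h thus stood apart from the other 3. The comparisons of BR-DIM 6 h and of isoflavone 72 h with the control do not use them, whereas the other comparisons rest on 1 of them and cannot be given without it. In such bulk RNA, fewer cells of a type and less RNA per cell cannot be told apart.

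Taking the brightest probe set of each gene, 34 of the 39 receptors were above the floor on at least 1 array (87.2%, against 70.9% of all genes) and 23 on all 5 (59.0%, against 53.4%). Per array, 29 exceeded it in the control, 32 after 6 h and 29 after 48 h of BR-DIM, and 26 after 6 h and 28 after 72 h of isoflavone. The 5 whose brightest probe set was never above it were NR1I3, the constitutive androstane receptor of liver, RXRG, ESRRB, NR5A1 (SF-1, a regulator of steroidogenic tissue) and NR0B2 (SHP, a repressor without a DNA-binding domain). A weaker ESRRB probe set reached 97.3 on BR-DIM 6 h, just over the floor, and no probe set of the other 4 exceeded it on any array. Those above it on only some arrays were THRB, RARG, NR1H3, HNF4G, NR2E1, NR2E3, ESR1, ESR2, NR4A2, NR4A3 and NR5A2. Every receptor group named below had a member above the floor on some array except the NR0B group.

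BR-DIM for 6 h left 2 of 33 measured receptors past 2-fold (6.06%, against 3.66% of all genes), NR2E1 higher and RXRA lower. BR-DIM for 48 h had 3 of 31 (9.68%, against 9.2%), with NR2E1 and NR3C2 higher and NR1H3 lower. Isoflavone for 6 h had 3 of 31 (9.68%, against 5.0%), with RXRB higher and RARG and RORB lower. Isoflavone for 72 h had 1 of 29 (3.45%, against 6.86%), NR2E1, which was higher. These shares rest on 1 to 3 genes each, too few to set them apart from the shares over all genes. The 4 comparisons share the control array, so their values are not independent of each other.

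**Figure D1:**
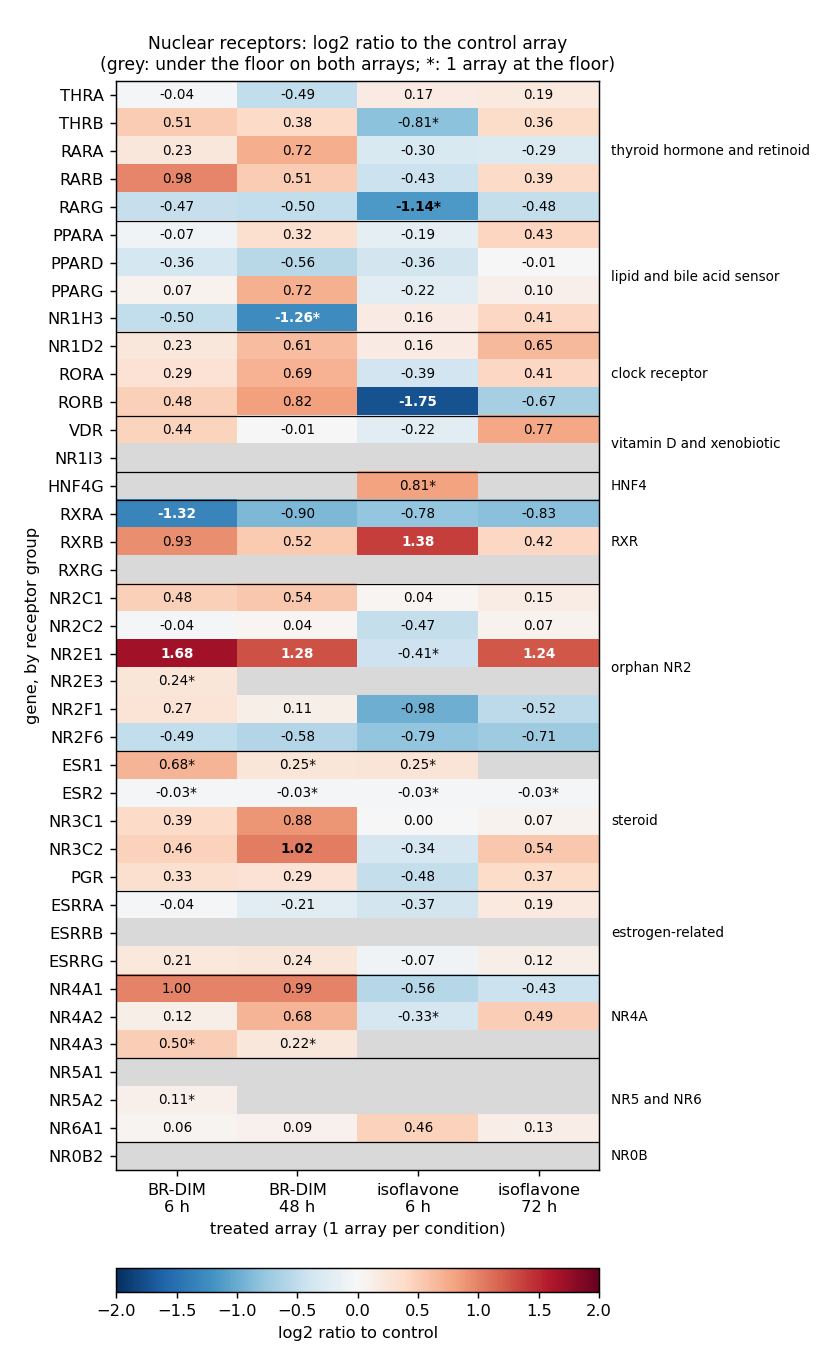
Log2 ratio of each treated array to the control array for the 39 receptors with a probe set of their own, by receptor group. Red is higher and blue lower than control, grey cells were under the floor on both arrays, an asterisk marks a ratio with 1 array at the floor, and bold type marks 2-fold or more. Only NR2E1 is past 2-fold on 3 of the 4 treated arrays.

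NR2E1 (TLX), an orphan receptor known for the upkeep of neural stem cells and for repression of its targets, had the signals 129.2 in the control, 414.5 and 313 after 6 h and 48 h of BR-DIM, and 84.3 and 304.8 after 6 h and 72 h of isoflavone. It was thus low on the control, under the floor on isoflavone 6 h and high on the other 3 arrays. The log2 ratios to the control were 1.68, 1.28, a bound of -0.41 and 1.24, or 3.21-fold, 2.42-fold and 2.36-fold on the 3 high arrays. NR2E1 has a single probe set, so no second one could be set beside it. Its promoter windows are the 2 printed above, with TGACGTCA at -56 of the first start and AAAGGTCA at -48 of the second.

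Among the other orphan NR2 receptors, NR2C1 and NR2C2 (the testicular receptors TR2 and TR4) bind direct repeats as repressors or activators. NR2C1 had signals of 1334, 1857, 1936, 1376 and 1482 (in this order of arrays throughout, from control, BR-DIM 6 h and 48 h to isoflavone 6 h and 72 h). It was highest on both BR-DIM arrays, with log2 ratios of 0.48 and 0.54, but its second probe set lay below the control there, at -0.44 and -0.69. NR2C2 had 1721, 1669, 1771, 1243 and 1806, lowest on isoflavone 6 h (-0.47) and within 0.07 of the control on the other arrays. Its second probe set was higher than control on isoflavone 6 h (0.35).

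NR2F1 (COUP-TFI), a repressor that acts on retinoid and hormone response elements, had signals of 811.8, 978.3, 878.8, 411.8 and 567.4. Both isoflavone arrays were below the control, by log2 ratios of -0.98 and -0.52, and both BR-DIM arrays were above it, by 0.27 and 0.11. NR2F6 (EAR2), which is related to it, had 1924, 1373, 1285, 1112 and 1174. All 4 treated arrays were thus below the control, by -0.49 to -0.79, though the second probe set of NR2F6 gave 0.35 on BR-DIM 6 h. NR2E3, a photoreceptor gene, was above the floor on BR-DIM 6 h alone, at 114.4.

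The RXR genes encode the shared partners of the receptors that form heterodimers. RXRA had signals of 1658, 665.5, 886, 965.3 and 931.1. The control was the highest of the 5, and the log2 ratios of the treated arrays were -1.32, -0.90, -0.78 and -0.83. A second RXRA probe set had 277.9, 304, 302.8, 164.6 and 176.6. It was also lower than control on both isoflavone arrays (-0.76 and -0.65) but not on the BR-DIM arrays (0.13 and 0.12), so the 2 probe sets differed by 1.45 and 1.03 there.

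RXRB had signals of 376.9, 715.8, 539.5, 978.4 and 504. Every treated array was above the control, by log2 ratios of 0.93, 0.52, 1.38 and 0.42, with isoflavone 6 h the highest. Its second probe set gave -0.34, -0.27, 0.31 and -0.63, so it had the opposite sign on all but isoflavone 6 h. RXRA was lower and RXRB higher on every treated array when the brightest probe sets were used, and this did not hold for the second ones. RXRG was under the floor on all arrays.

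**Figure D2:**
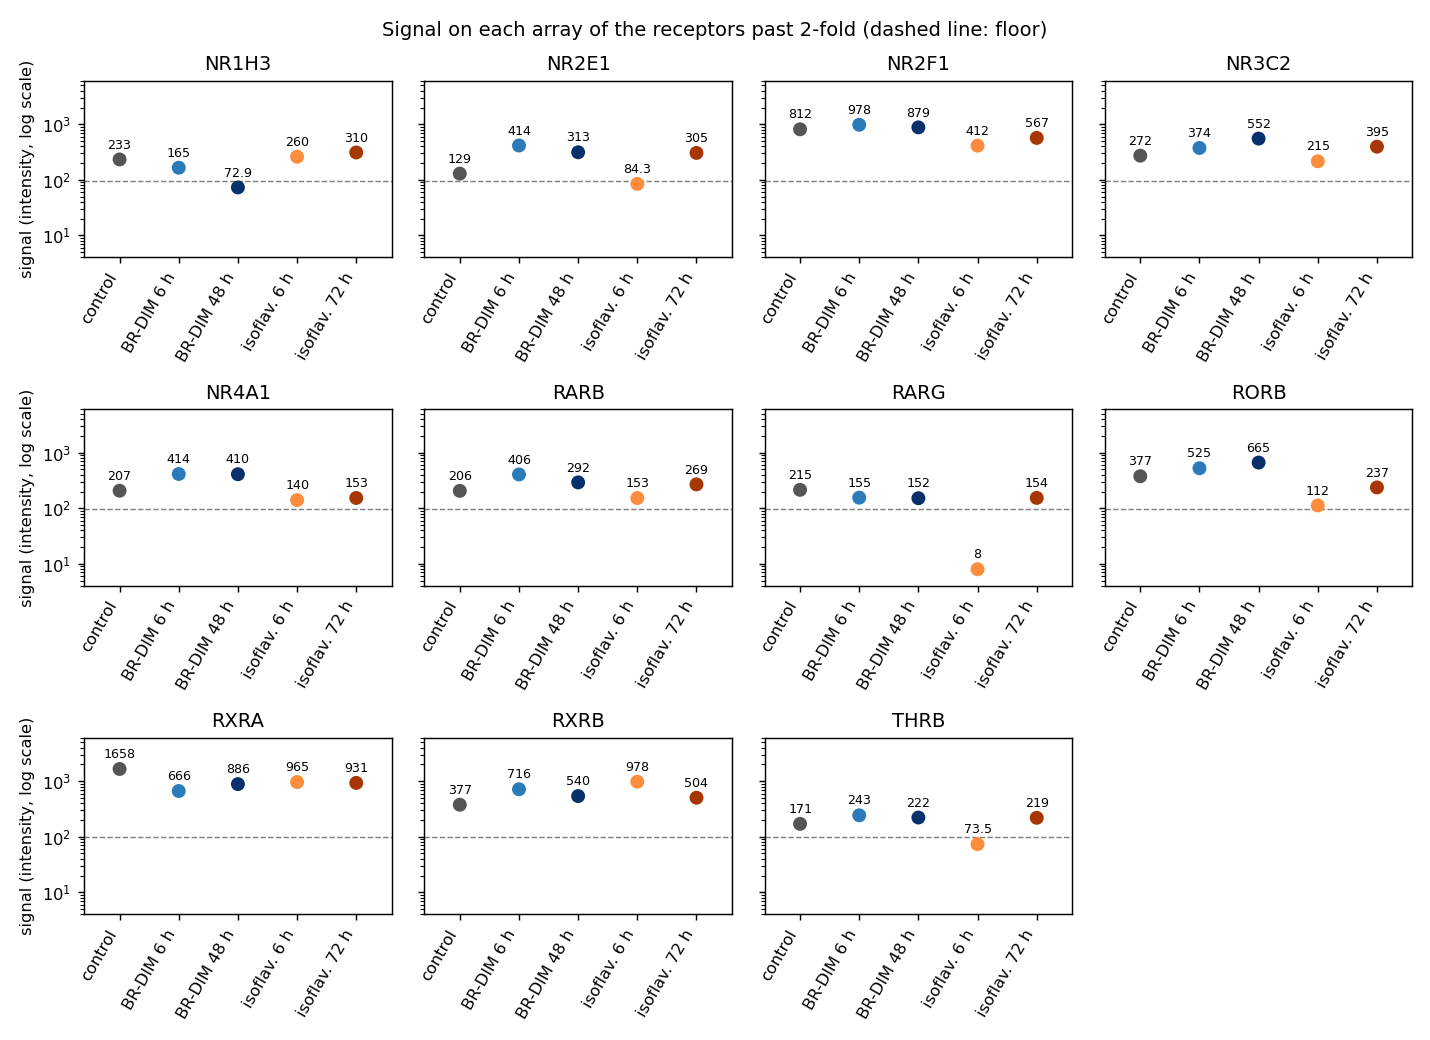
Signal on each of the 5 arrays, on a log axis, of the 11 receptors that were past 2-fold in a comparison with the control or between the agents at 6 h. Each point is 1 array and the dashed line is the floor of 97.1; NR2E1 is high on both BR-DIM arrays and on isoflavone 72 h, and RARG falls to 8 on isoflavone 6 h.

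The thyroid hormone and retinoic acid receptors are repressors without ligand and activators with it. All 5 of them were measured in every comparison with the control. RARB, a tumour suppressor candidate and itself a target of retinoic acid through the repeat printed above, had signals of 205.7, 406.2, 292, 152.9 and 269.3. It was highest on BR-DIM 6 h, just under 2-fold at a log2 ratio of 0.98, and lowest on isoflavone 6 h, at -0.43. The second RARB probe set did not differ on BR-DIM 6 h (234.5 and 235.2, a log2 ratio of 0.00) and was also lowest on isoflavone 6 h (136.4, or -0.78).

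RARG had signals of 214.7, 155.3, 151.9, 8 and 153.6, so that it lay below the control on every treated array and under the floor on isoflavone 6 h, with a bound of -1.14 there and -0.47 to -0.50 on the other 3. No other RARG probe set was above the floor on any array, so its ratios rest on 1 probe set. THRB had 170.6, 243.2, 221.8, 73.5 and 219. It too was under the floor on isoflavone 6 h alone (a bound of -0.81) and was 0.36 to 0.51 above the control elsewhere. Its second probe set was above the control on BR-DIM 6 h alone (0.30), at -0.11 on BR-DIM 48 h and under the floor on both isoflavone arrays (bounds of -0.27). RARA was 262, 306.7, 432.5, 212.1 and 213.9, higher on BR-DIM 48 h (0.72), and THRA stayed within 0.49 of the control on all arrays.

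NR1D2 (REV-ERBβ), RORA and RORB act on the same response elements in the circadian clock, REV-ERBs as repressors and RORs as activators. RORB had signals of 376.9, 525.2, 664.8, 112.2 and 237.1. Both BR-DIM arrays were above the control (0.48 and 0.82) and both isoflavone arrays below it (-1.75 and -0.67). A second RORB probe set, at 101.5, 117.6, 245.4, 10.1 and 6.7, had the same order of agents, with isoflavone under the floor at both times. The third RORB probe set was above the floor on BR-DIM 48 h alone.

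NR1D2 had signals of 1091, 1276, 1669, 1220 and 1713, with the later time of each agent the highest (0.61 and 0.65). Its second probe set was also higher on BR-DIM 48 h (0.39) but not on isoflavone 72 h (-0.05). RORA had 408.8, 498.8, 660.8, 312.6 and 544.2, lower than control on isoflavone 6 h (-0.39), where another of its probe sets was higher (125.2 against 97.4). The 3 clock receptors were thus above the control on both BR-DIM arrays, by 0.23 to 0.82.

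Of the 4 lipid sensors with a probe set, NR1H3 alone was past 2-fold. NR1H3 (LXRα), the oxysterol receptor that controls cholesterol efflux and lipogenesis, had signals of 232.8, 165, 72.9, 259.9 and 310.3. It was below the control on both BR-DIM arrays (-0.50 and a bound of -1.26) and above it on both isoflavone arrays (0.16 and 0.41). The gene has 1 probe set, and 1 of its promoter windows holds the AGGTCA printed above at -140.

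PPARD, the widely expressed fatty acid receptor, had signals of 1012, 789.7, 686.1, 786 and 1005, lowest on BR-DIM 48 h at -0.56, where its second probe set gave 0.17. PPARG, the receptor of fat cell differentiation, was highest on BR-DIM 48 h (621.2 against 378.1, or 0.72), and PPARA, which drives fatty acid oxidation, was within 0.43 of the control on all arrays. VDR, the vitamin D receptor, was 217.7, 295.9, 216.5, 187.2 and 371.5. Its ratio of 0.77 on isoflavone 72 h stood against -0.71 for the second probe set and -0.39 for the third, so the direction there depends on the probe set. HNF4G was above the floor on isoflavone 6 h alone.

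Among the steroid receptors, NR3C1, the glucocorticoid receptor, had signals of 2309, 3023, 4252, 2305 and 2429. It was higher on the BR-DIM arrays (0.39 at 6 h and 0.88 at 48 h) and within 0.08 of the control on the isoflavone arrays. The second NR3C1 probe set gave 0.56, 0.92, 0.03 and 0.20, and the third gave 0.49, 1.08, -0.35 and 0.18. These 3 had BR-DIM 48 h as their highest array. The fourth gave 0.38, 0.33, -0.76 and -0.61 and the fifth 0.56, -0.36, -0.51 and 0.16, so after 6 h of BR-DIM all 5 exceeded the control, by 0.38 to 0.56, whereas after 48 h they ran from -0.36 to 1.08.

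NR3C2, the mineralocorticoid receptor, had signals of 272.2, 374.3, 551.9, 215.3 and 394.9. Its log2 ratio was 0.46 and 1.02 at the earlier and later time of BR-DIM and -0.34 and 0.54 at those of isoflavone, and it has 1 probe set. PGR, the progesterone receptor, was 472.5, 592.6, 576.9, 338.7 and 608.8 and followed the same order of sign, with 0.29 to 0.37 on 3 arrays and -0.48 on isoflavone 6 h. The second PGR probe set was under the floor on all arrays. ESR1 and ESR2, the receptors of genistein, were near or under the floor. ESR1 reached 155.3 and 115.4 after 6 h and 48 h of BR-DIM and 115.5 after 6 h of isoflavone and was under the floor on the other 2, while 2 weaker ESR1 probe sets reached 102.2 and 105.3 on isoflavone 72 h, and ESR2 was above it on the control alone, at 99.2.

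The estrogen-related receptors are orphans that drive mitochondrial genes. ESRRG had signals of 709.3, 817.9, 837.8, 677.3 and 771.7, within 0.24 of the control, though its second probe set gave -0.88 and -0.80 at the later times of BR-DIM and isoflavone. The brightest ESRRA probe set was within 0.37 of the control on all arrays. The second, at 258.4, 345, 208.7, 80.9 and 83.4, was under the floor on both isoflavone arrays, with a bound of -1.41 on each. In the NR4A group, NR4A1 (Nur77) had 207.1, 414, 410.2, 140.2 and 153.2. Both BR-DIM arrays were just under 2-fold higher (log2 ratios of 0.9993 and 0.986) and both isoflavone arrays lower (-0.56 and -0.43). The second NR4A1 probe set was above the floor on the BR-DIM arrays alone, at 121.5 and 231.8. NR4A2 (Nurr1) was above the control on both BR-DIM arrays (0.12 and 0.68) and on isoflavone 72 h (0.49). It was under the floor on isoflavone 6 h (a bound of -0.33). The second NR4A2 probe set was above the control on every treated array, with bounds of 0.33, 0.69, 0.02 and 0.15. The brightest NR4A3 (NOR1) probe set was above the floor on the BR-DIM arrays alone, at 137.1 and 113.3. A second NR4A3 probe set ran the other way, above the floor on the control alone, at 112.2. NR6A1, a germ cell repressor, was 0.46 higher on isoflavone 6 h, where its second probe set gave -0.67, and NR5A2 exceeded the floor on BR-DIM 6 h alone, at 104.5.

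How far a receptor's ratio depends on the probe set was measured where the 2 brightest probe sets were both above the floor on both arrays, in 11 to 19 receptors per comparison. Their log2 ratios differed by a median of 0.30 and 0.45 for the earlier and later BR-DIM array and 0.36 and 0.32 for the earlier and later isoflavone array, where all genes gave 0.29, 0.32, 0.27 and 0.39. The direction was shared by 6 of 15, 8 of 15, 5 of 12 and 6 of 12 receptors, and by 61.8% to 68.4% of all genes.

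**Figure D3:**
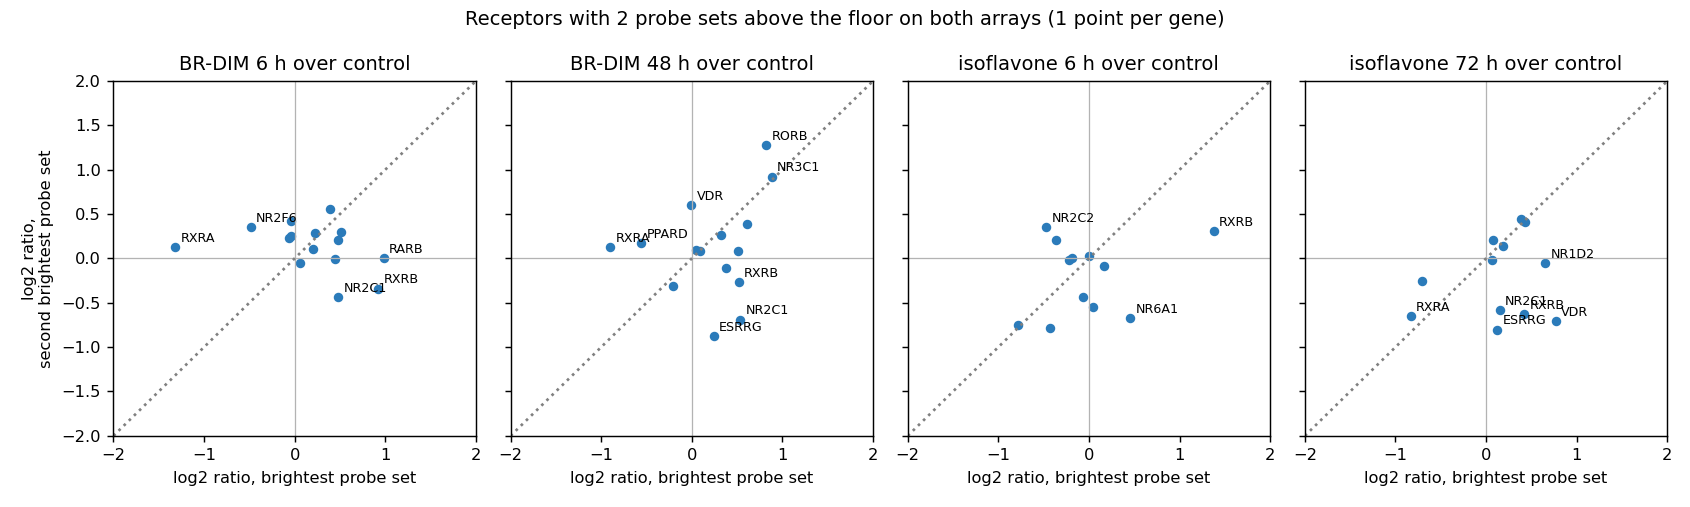
Log2 ratio to the control of the second brightest probe set against that of the brightest, 1 point per receptor with both above the floor on both arrays, for each treated array. The dotted line marks equal ratios; NR3C1 lies near it on BR-DIM 48 h for this pair, and RXRA and RXRB lie far from it on both BR-DIM arrays.

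Without regard to a threshold, 23 of 33 measured receptors exceeded the control after 6 h of BR-DIM, 22 of 31 after 48 h, 8 of 31 after 6 h of isoflavone and 20 of 29 after 72 h. Over all genes measured, 57.2%, 54.5%, 50.3% and 54.3% were above it. The median log2 ratios of the receptors were 0.23, 0.29, -0.33 and 0.15, beside 0.07, 0.06, 0.00 and 0.05 over all genes. By their brightest probe sets, the receptors were thus mostly lower than control on isoflavone 6 h and mostly higher on the other 3 arrays. The 2 brightest probe sets shared a direction in only 6 of 15, 8 of 15, 5 of 12 and 6 of 12 receptors, as given above. These counts therefore depend on the probe set. On isoflavone 6 h, 11 of the 14 receptors with a mean signal above 471.7, the 75th percentile of all signals, were lower than control, where 54.6% of all genes in that range were higher, and 11 of 14 were lower in the range from the floor to the 75th percentile, where 41.0% of all genes were higher. All 8 luminal and all 4 epithelial markers were past 2-fold lower on that array too, and their part in the receptors' result was not tested. On BR-DIM 48 h the same 8 and 4 markers were past 2-fold lower and 22 of 31 receptors were higher, and how these relate was not tested there either.

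**Figure D4:**
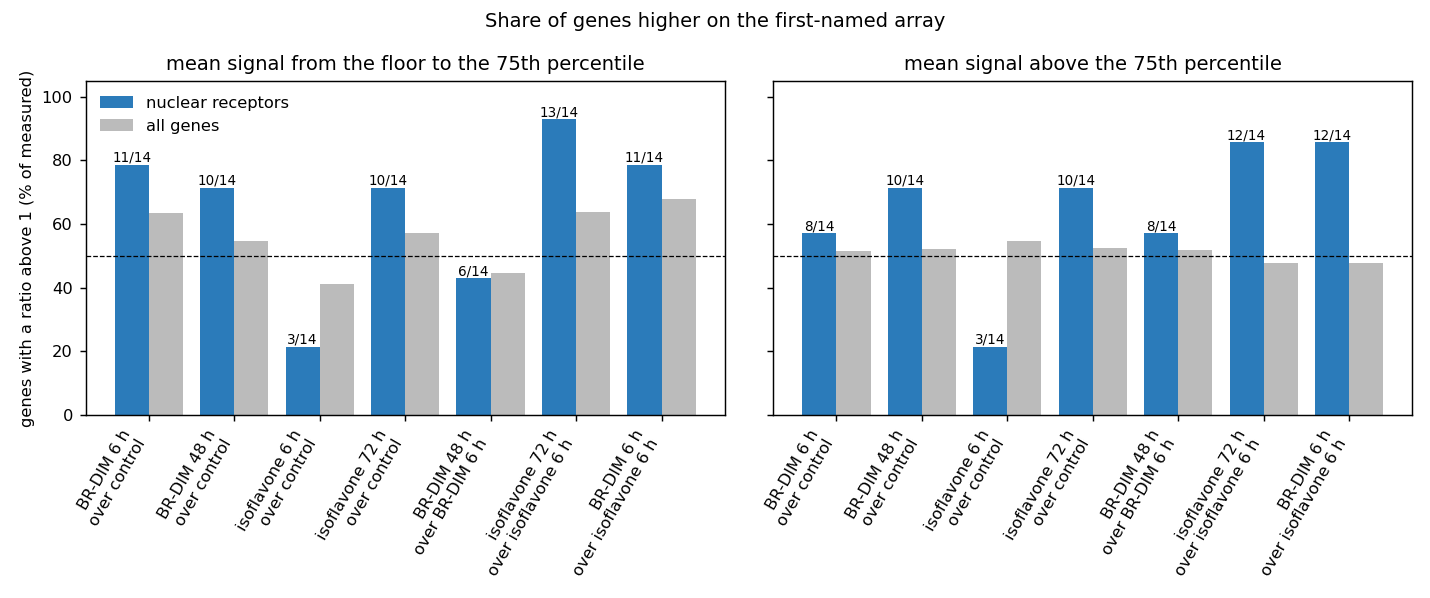
Share of measured genes with a ratio above 1 in each of the 7 comparisons, for receptors (blue, with counts) and all genes (grey), with the genes split by mean signal at the 75th percentile. By their brightest probe sets, receptors lie below all genes on isoflavone 6 h over control and above them when isoflavone 6 h is the denominator.

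Between the agents at the time they share, 6 h, 6 of 33 receptors were past 2-fold (18.2%, against 8.12% of all genes), all 6 higher with BR-DIM (against 7.01% of all genes in that direction). These were RORB (525.2 with BR-DIM and 112.2 with isoflavone, a log2 ratio of 2.23), NR2E1 (414.5 and 84.3, a bound of 2.09), NR4A1 (414 and 140.2, or 1.56), RARB (406.2 and 152.9, or 1.41), THRB (243.2 and 73.5, a bound of 1.32) and NR2F1 (978.3 and 411.8, or 1.25). The receptors' median was 0.42, and 27 of 33 were higher with BR-DIM, where the median of all genes was 0.06 and 56.0% were higher. The direction was shared by the 2 brightest probe sets in 9 of 12 receptors, and in 66.6% of all genes. For RARB the second probe set gave 0.79 and for RORB a bound of 0.28, in the same direction, while the third NR4A1 probe set, above the floor on isoflavone 6 h alone, gave -0.44. All 8 luminal and all 4 epithelial markers were also past 2-fold higher on BR-DIM 6 h than on isoflavone 6 h, and this comparison cannot be made without the isoflavone 6 h array.

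RXRB, RXRA and NR1H3 ran the other way, at -0.45, -0.54 and -0.66 on the log2 scale, and so did HNF4G, with a bound of -0.81. The second RXRA probe set gave 0.89, so its direction here depends on the probe set, and the second of RXRB gave -0.65. Over all 4 treated arrays, 6 of the 29 receptors measured on each lay on one side of the control with both BR-DIM arrays and on the other with both isoflavone arrays, as 907 of 11988 genes did. RORB, NR2F1, NR4A1 and RARA were higher with BR-DIM and lower with isoflavone, and NR1H3 and THRA the reverse. The second RARA probe set was higher than control on both isoflavone arrays too (0.44 and 0.35), and that of THRA was under the floor on both BR-DIM arrays and on isoflavone 6 h. NR2F1 and NR1H3 have 1 probe set each. The second NR4A1 probe set was under the floor on the control and both isoflavone arrays, and the third gave a bound of 0.44 on isoflavone 6 h. For all but RORB the pattern thus rests on 1 probe set, and the second RORB probe set was under the floor on both isoflavone arrays. The later times differ (48 h and 72 h), so they were not compared with each other.

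Within an agent, no receptor of 32 was past 2-fold on BR-DIM 48 h over 6 h (0.0%, against 5.57% of all genes), and the log2 ratios ran from -0.76 (NR1H3) to 0.64 (PPARG). Isoflavone 72 h over 6 h had 3 of 30 (10.0%, against 9.65%), namely NR2E1 (a bound of 1.65), THRB (a bound of 1.17) and RORB (1.08), all higher at 72 h (against 7.77% of all genes in that direction). Of the 30 receptors 25 were higher at 72 h, with a median of 0.41, beside 53.2% of all genes and a median of 0.04. The 2 brightest probe sets shared a direction in 5 of 11 receptors here (45.5%, against 61.4% of all genes). The count of 25 therefore depends on the probe set. RXRB ran against the 25, from 978.4 to 504 (-0.96), and its second probe set gave -0.93. The luminal and epithelial markers were higher at 72 h too, 7 of 8 and 4 of 4 past 2-fold.

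Genes that the receptors act with or on were taken from lists set by function. These lists too were chosen with earlier results of these data known, so their shares past 2-fold are not independent of these data. The coregulators, which bridge receptors to chromatin and polymerase, had 19 of 22 genes with a probe set and medians within 0.14 of 0 on the 4 treated arrays. NRIP1, a corepressor that ligand-bound receptors recruit, was higher on isoflavone 72 h (1148 to 2347, or 1.03), and TBL1XR1, a subunit of the corepressor complex, was lower on isoflavone 6 h (5412 to 2601, or -1.06). No other coregulator was past 2-fold against the control. Each of these 2 arrays thus had 1 of 18 measured (5.56%), near the shares of all genes (6.86% on isoflavone 72 h and 5.0% on isoflavone 6 h). The 12 chaperones and cochaperones of steroid receptors were mostly below the control, with medians of -0.14, -0.24, -0.25 and -0.58. DNAJA1, an HSP40, was lower on both BR-DIM arrays (-1.29 and -1.02), and STIP1, which links HSP70 to HSP90, on BR-DIM 48 h and isoflavone 72 h (-1.17 and -1.40), while HSP90AA1 stayed within 0.21. This is 1, 2, 0 and 1 of the 12 on the 4 arrays, or at most 16.7%, beside 9.2% of all genes on the same array.

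Of 8 LXR targets 7 were measured. All 7 exceeded the control after 6 h of BR-DIM, with a median of 0.75 and none past 2-fold. On BR-DIM 48 h, ABCG1, a cholesterol exporter (128.1 to 317.3, or 1.31), and APOE (143.8 to 390.5, or 1.44) were higher and SREBF1, the regulator of lipogenesis, was lower (211.2 to 51.3, a bound of -1.12). On isoflavone 72 h, ABCG1 (1.68), SREBF1 (1.40) and SCD, a fatty acid desaturase (1.02), were higher, with a median of 0.51 and 6 of 7 above the control. Each of these 2 arrays thus had 3 of 7 past 2-fold (42.9%), beside 9.2% and 6.86% of all genes. NR1H3 itself was lower than control on both BR-DIM arrays, as given above.

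The glucocorticoid receptor targets, 8 of 9 with a probe set, had 1 past 2-fold higher after 6 h of BR-DIM, 3 higher and 2 lower after 48 h, 1 higher and 1 lower after 6 h of isoflavone and 3 higher after 72 h. Of the 8 these are 12.5%, 62.5%, 25.0% and 37.5%, beside 3.66%, 9.2%, 5.0% and 6.86% of all genes. TSC22D3 (GILZ) had signals of 522, 1528, 1123, 381.5 and 1116, past 2-fold higher on all arrays but isoflavone 6 h. DUSP1, a MAP kinase phosphatase, was higher at the later time of both agents (1.66 and 1.08). MT2A, a metallothionein, was lower on BR-DIM 48 h (-1.85) and higher on isoflavone 72 h (1.25), and ZBTB16 was lower on BR-DIM 48 h (-1.15) and isoflavone 6 h (a bound of -1.46). KLF9 (BR-DIM 48 h) and SGK1 (isoflavone 6 h) were the others that were higher. The list's medians were 0.23, 0.41, -0.23 and 0.09.

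Of 8 estrogen receptor targets 5 were measured against the control. XBP1, a factor of the unfolded protein response, had signals of 703.7, 1888, 2608, 756.3 and 3313 and was past 2-fold higher on all arrays but isoflavone 6 h. AGR2 was higher on BR-DIM 6 h (1.30) and isoflavone 72 h (1.07) and under the floor on the other treated arrays. CA12, a carbonic anhydrase, was lower on BR-DIM 48 h (-1.08) and isoflavone 6 h (-1.97), and MYB, a transcription factor, was lower on isoflavone 6 h (a bound of -1.57). Each treated array had 2 of the 5 past 2-fold (40.0%), beside 3.66% to 9.2% of all genes. TFF1, TFF3 and CXCL12 were under the floor on all arrays.

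**Figure D5:**
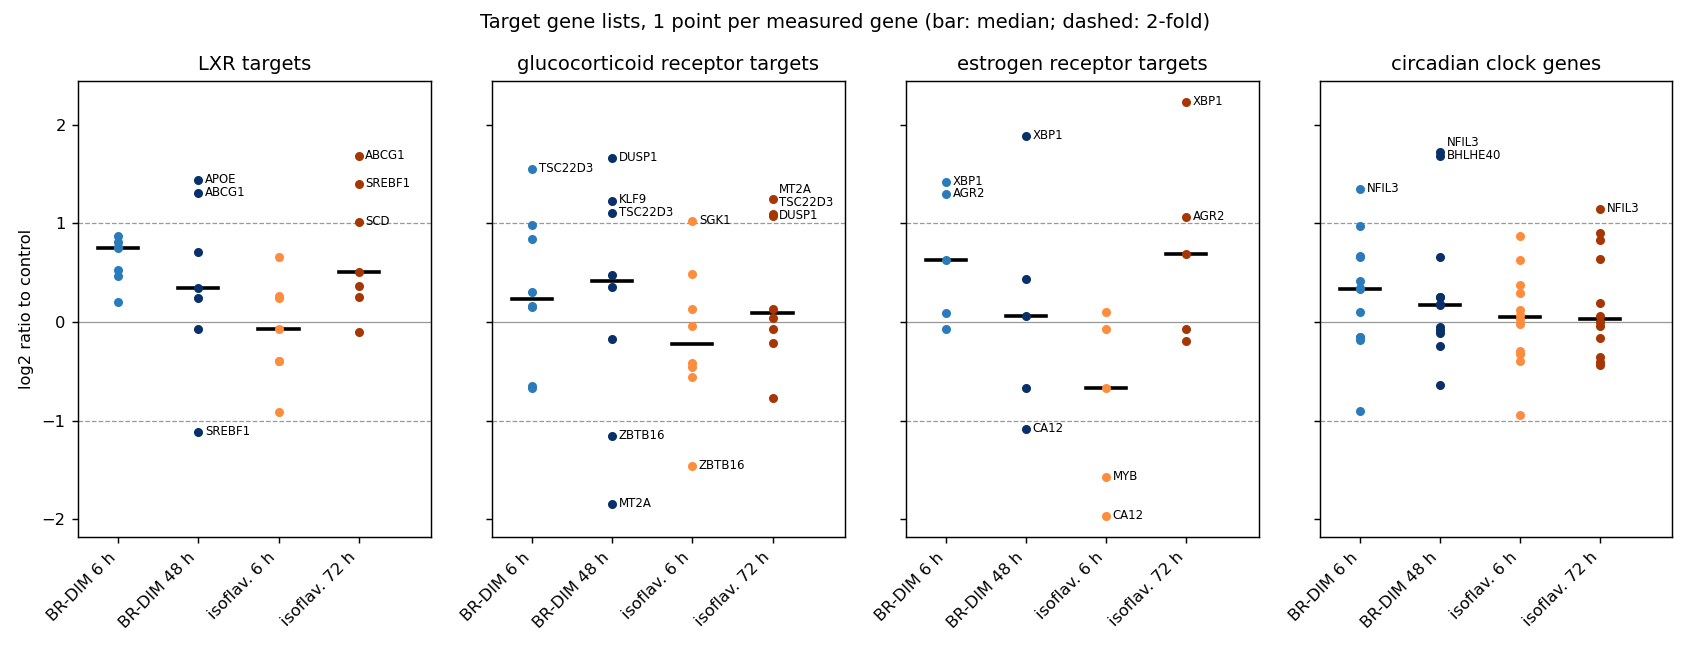
Log2 ratio to the control of each measured gene in 4 target gene lists on the 4 treated arrays; the black bar is the list's median, dashed lines mark 2-fold and genes past it are named. The LXR targets lie above 0 on BR-DIM 6 h, and XBP1 and NFIL3 are past 2-fold on the same 3 arrays.

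The 12 circadian clock genes, which the REV-ERB and ROR receptors feed back on, had medians of 0.34, 0.18, 0.05 and 0.03. NFIL3, a repressor opposed to DBP, had signals of 679, 1726, 2247, 833.9 and 1509 and was past 2-fold higher on all arrays but isoflavone 6 h, and BHLHE40 was past it on BR-DIM 48 h (1.69). No clock gene was past 2-fold lower than control, and 0 to 2 of the 12 were past it higher. The most was 16.7%, on BR-DIM 48 h, beside 9.2% of all genes. Of the retinoic acid receptor targets, 2 of 4 measured were past 2-fold on BR-DIM 6 h, beside 3.66% of all genes. Both were higher. STRA6, a retinol transporter, was under the floor on the control (90.6 to 255.1, a bound of 1.39). CRABP2, which carries retinoic acid to its receptor, rose from 224.4 to 451.9 (1.01). CYP26A1 alone of the 4 was lower there (163.8 to 108.3, or -0.60). No gene of this list was past 2-fold on the other treated arrays. Among the retinoid enzymes, ALDH1A3, which makes retinoic acid, was lower on isoflavone 6 h (400.6 to 156, or -1.36). PLIN2, a lipid droplet protein and PPAR target, was lower on the same array (433.6 to 122.5, or -1.82), and so was ABCB1, a drug exporter and PXR target (298.5 to 129.4, or -1.21). Each was the only gene past 2-fold among 4, 4 and 3 measured in its list (25.0%, 25.0% and 33.3%), beside 5.0% of all genes. No measured target of the vitamin D receptor was past 2-fold against the control, and 4 of that list's 7 genes were under the floor on all arrays.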

How the data were processed

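RNA of 5 C4-2B cultures was measured on 5 Affymetrix arrays, 1 per condition. The authors made the intensity values with MAS5 as a linear signal for each probe set and brought the arrays to a common level before the values were deposited; the version, scaling target and detection calls are not given in the sources used here. Of 54613 probe sets, 41091 carry 1 gene symbol and were used. The brightest probe set by mean signal stood for its gene. Signals under the floor (97.1, the median) were raised to it, and log2 ratios were taken with Python 3.11.15, numpy 2.4.6 and pandas 2.3.3; the code was tested on simulated data. Named receptors are those at 2-fold or more in a comparison with the control or between agents at 6 h, and the 10 with the highest mean signal; from other lists, at most 4 genes at 2-fold have values. Further values (HSP90AA1, CYP26A1, PPARG, RARA, VDR and the remaining receptors) were added after they were seen. Members and lists were chosen with earlier results of these data known. Promoters are from RefSeq. Alternatives were quantile and median ratio scaling, 2 other uses of the floor and 2 other choices of probe set.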

Additional observations from a re-analysis of the deposited data

Results flagged for a closer look

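RORB and NR1H3 lay on opposite sides of the control with the 2 agents at both times of each, and were past 2-fold with one of them. RORB had log2 ratios of 0.48 and 0.82 on BR-DIM 6 h and 48 h and of -1.75 and -0.67 on isoflavone 6 h and 72 h. NR1H3 had -0.50 and -1.26 with BR-DIM, the latter a bound, and 0.16 and 0.41 with isoflavone. The difference between the agents was not tested, since each condition has 1 array.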

How the results depend on the processing

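With 34 receptors above the floor and 15 ratios past 2-fold in the comparisons with the control and between the agents at 6 h, quantile normalization kept all 15 and scaling by the median ratio 14, NR3C2 on BR-DIM 48 h coming to 0.98. A floor at the 75th percentile left 17 receptors above it and kept 3 ratios, with counts past 2-fold of 1 and 0 for the earlier and later BR-DIM array, 1 and 0 for those of isoflavone, 0 for isoflavone between its times and 1 between the agents. The floor as a pseudocount kept 10, with 0 for the later array of each agent. Averaging all probe sets kept 7, with 1 after 6 h of BR-DIM, 0 after 6 h of isoflavone, 1 for isoflavone between its times and 3 between the agents (NR2E1, NR2F1 and ESRRA). Without the probe sets named _s_at or _x_at, 11 of 14 were kept, with 1 on BR-DIM 6 h, and NR4A1 between the agents was reversed (-0.44). The cause of these differences was not tested. One array per condition and signals near the floor limit every value. No paired analysis was possible because each group has 1 array.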
